A study of Caenorhabditis elegans with 6 samples.

Results

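Nicotinic acetylcholine receptor subunits and the proteins that assemble, cluster or accompany these receptors were followed in RNA tagged in the PVD and OLL neurons of Caenorhabditis elegans larvae and in RNA of whole larvae. The genes were all acr genes with a number, the levamisole receptor genes unc-29, unc-38, unc-63, lev-1 and lev-8, the pharyngeal subunit gene eat-2, and 10 accessory genes (ric-3, nra-2, nra-4, unc-50, unc-74, lev-9, lev-10, oig-4, molo-1 and eat-18). The subunit genes deg-3 and des-2 were left out of the group. Of 38 genes named this way, 33 had a probe set that carried their name alone, among 17118 such genes on the array. They comprised 26 subunits and 7 accessory genes. The other 5, acr-22, acr-25, unc-74, oig-4 and eat-18, were not analysed here.

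Nicotinic receptors are pentamers of subunits around a cation pore that opens when acetylcholine binds. In the worm they carry excitation from motor neurons to body wall muscle and to the pharynx, and they also act on neurons. Subunits fold in the endoplasmic reticulum with the help of chaperones, pass through the Golgi and are then held in clusters at synapses by extracellular scaffold proteins. PVD neurons are branched nociceptors of the body wall, and OLL neurons sense touch at the head.

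The PVD and OLL group comprised 3 arrays of poly(A) RNA, pulled down through the poly(A) binding protein PAB-1, which carried a 3X FLAG tag and was made from the ser-2prom3B promoter. The whole animal group comprised 3 arrays of total RNA from whole lysates. Larvae of both groups were at the L3/L4 stage and were grown at 25 °C on E. coli Na22, and all RNA was amplified with the NuGEN WT-Pico kit. Kind of RNA, way of isolation and cell source changed together and cannot be told apart. The labels used here give no strain and do not say whether the whole animals carried the tag. They call the neuronal samples biological replicates and only number the others, so the p-values reflect the scatter of these arrays, part of which may be technical. Lower RNA per cell and fewer cells of a type cannot be told apart in such samples.

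Values are the log2 signals of 1 probe set per gene, the brightest over the 6 arrays. They compare arrays for 1 gene and not genes with each other. Differences are PVD and OLL means minus whole animal means, given with the standard error (SE) or 95% confidence interval of limma. A gene was called at an adjusted p under 0.05 over all probe sets, and 13.6% of probe sets were called. Each array's background was read from 32 controls that target bacterial or yeast RNA. This level was 2.44, 2.28 and 2.44 on PVD and OLL replicates 1 to 3 and 3.09, 3.43 and 2.95 on whole animal replicates 1 to 3. Replicate 3 stood apart in both groups: its signal was 1 or more away from the mean of the other arrays of its group for 9.13% of genes in PVD and OLL and for 11.7% in the whole animal, against at most 2.76% and 5.30% for the other replicates. Omitting it from both groups turned the sign of 5 nicotinic genes, 0 of them called either way (unc-63, acr-2, acr-18, acr-15 and lev-9). Values without it are given beside the genes it moved most. Of 13 markers of PVD and OLL neurons 9 rose and 0 fell. With single arrays left out, the call of asic-1 was lost in 6 of 6 runs, of del-1 in 5 and of hpo-30 in 3. Those of unc-86 and kpc-1 were each lost in 1 run, and those of mec-3, deg-3, des-2 and dma-1 in 0. The signals of the 13 (log2 values turned back to linear units) summed to 1492 to 1627 in PVD and OLL samples. In whole animal samples they summed to 231.4 to 248.5. The 13 include deg-3 and des-2, which made up most of the PVD and OLL sums, with 1042 to 1160 in PVD and OLL samples and 33.3 to 78.6 in whole animal samples. No marker of the 13 was below background on all PVD and OLL arrays, while ser-2 and F49H12.4 were on all whole animal arrays. Background was lower on the PVD and OLL arrays, and F49H12.4 differed by only 0.03 (adjusted p = 0.945). Also not called were eat-4 (0.01, adjusted p = 0.988), ser-2 (0.72, adjusted p = 0.202) and mec-10 (0.78, adjusted p = 0.0587).

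Among the 33 nicotinic genes, ric-3, unc-50 and lev-10 rose in the PVD and OLL samples and 0 fell. All 3 belong to the 7 accessory genes, and 0 of the 26 subunits passed the test in either direction in limma. At an unadjusted p under 0.05, 3 of the 26 subunits were higher and 3 lower, against 2873 higher and 2520 lower of all 17118 genes. Over all genes 8.10% were called higher and 4.66% lower, so the share called higher among the nicotinic genes (9.09%) lay near the background. The median difference was 0.21 over the nicotinic genes, 0.16 over the subunits and 0.38 over the accessory genes, against -0.07 over all genes. With each array centred on its median, the nicotinic median was 0.0043 and that of all genes -0.27. Centring on the bioB and bioC hybridization controls instead moved these medians to 1.45 and 1.17. Directions are therefore those of the deposited scale.

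**Figure D1:**
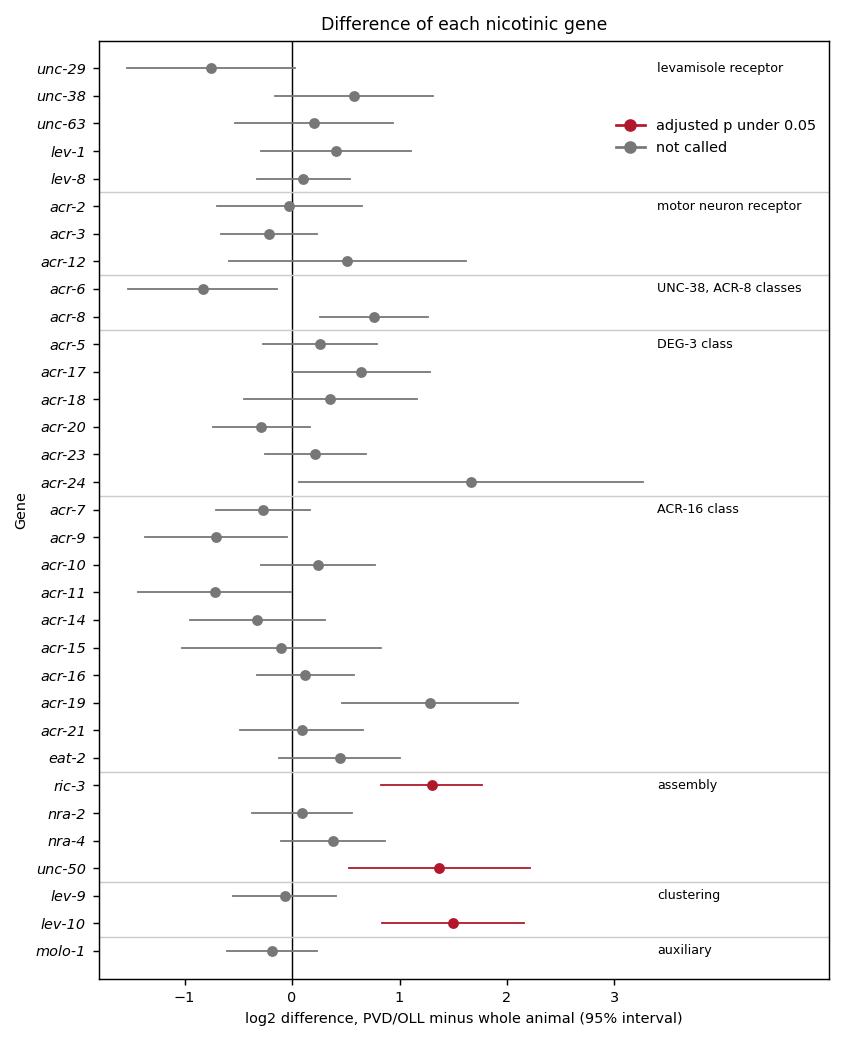
Difference of each of the 33 nicotinic genes on the log2 scale (PVD and OLL minus whole animal), the line being limma's 95% confidence interval; n = 3 arrays per group. Red marks the called genes ric-3, unc-50 and lev-10, and the widest interval belongs to acr-24, from 0.07 to 3.27.

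ric-3 encodes a chaperone of the endoplasmic reticulum that nicotinic receptors need for their maturation, the DEG-3 and DES-2 receptor among them. In order of replicate, it read 6.76, 6.95 and 6.99 in PVD and OLL, and 5.80, 5.35 and 5.66 in the whole animal. Every PVD and OLL array lay above every whole animal array. ric-3 rose 2.46-fold, by 1.3 ± 0.20 on the log2 scale (SE, 3 arrays per group; limma, adjusted p = 0.00948). Its other probe set read 3.46, 3.51 and 2.86 in PVD and OLL and 2.05, 1.90 and 1.83 in the whole animal. The whole animal values of that probe set lay below background. Against background it was at least 1.09-fold higher on the deposited scale, and its difference was called (adjusted p = 0.0127). The rise of ric-3 was called with 5 of the 6 arrays left out in turn and not without PVD and OLL replicate 2 (1.27, adjusted p = 0.052). With replicate 3 of both groups left out it was 1.28 (adjusted p = 0.0145).

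unc-50 encodes a Golgi membrane protein that levamisole receptors need to reach the cell surface. Its signal was 6.13, 5.63 and 5.75 in PVD and OLL, and 4.64, 5.07 and 3.68 in the whole animal. The groups did not overlap, but the whole animal arrays were spread, with replicate 3 lowest. unc-50 rose by 1.37 ± 0.36 (adjusted p = 0.0452), close to the threshold. Its dimmer probe set read 3.16 ± 0.22 in PVD and OLL and 2.73 ± 0.46 in the whole animal (SD, n = 3 each), a difference of 0.43 that was not called (adjusted p = 0.307). Leaving out any PVD and OLL array ended the call, with differences of 1.23, 1.47 and 1.41 without replicates 1, 2 and 3, and so did leaving out whole animal replicate 1 (1.46, adjusted p up to 0.135 over these 4 runs). It held with replicate 3 of both groups left out (1.02, adjusted p = 0.0387), but not after repeated quantile normalization (1.03, adjusted p = 0.154).

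The remaining assembly genes measured were nra-2 and nra-4, which encode partners in a complex of the endoplasmic reticulum that sets which subunits are assembled. nra-2 read 5.33, 4.95 and 5.03 in PVD and OLL and 5.13, 4.85 and 5.04 in the whole animal. The groups overlapped, and the difference was 0.10 (95% interval from -0.37 to 0.56). nra-4 read 6.17, 6.23 and 6.20 in PVD and OLL and 5.71, 6.13 and 5.61 in the whole animal. Its groups did not overlap, but the difference of 0.38 ± 0.21 was not called (adjusted p = 0.240). nra-2 and nra-4 both exceeded background on every array.

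lev-10 encodes a transmembrane protein with CUB domains that clusters levamisole receptors at the neuromuscular junction. Its signal was 8.37, 8.45 and 8.01 in PVD and OLL, and 6.42, 7.33 and 6.58 in the whole animal. The lowest PVD and OLL array lay above the highest whole animal array. lev-10 rose by 1.5 ± 0.28 (adjusted p = 0.0173), a 2.82-fold difference. A second probe set, which is not of the kind that may match several transcripts, rose by 1.49 ± 0.30 (adjusted p = 0.0202). The other, dimmer one was 0.70 ± 0.26 higher with no overlap and was not called (adjusted p = 0.108). Leaving out PVD and OLL replicate 1 (1.45) or 2 (1.41), or whole animal replicate 1 (1.32), ended the call of lev-10, at an adjusted p of up to 0.0774. With replicate 3 of both groups left out the difference was 1.53 (adjusted p = 0.0216). In the RefSeq gene table the lev-10 locus overlaps that of eat-18, which encodes a small membrane protein needed by pharyngeal nicotinic receptors, and whether the lev-10 probe sets also read eat-18 was not tested.

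lev-9 and molo-1 were not called. lev-9, which encodes a secreted protein of the same clustering scaffold, read 4.17, 4.57 and 4.26 in PVD and OLL and 4.45, 4.20 and 4.56 in the whole animal. The groups overlapped, with a difference of -0.07 (95% interval from -0.55 to 0.41) and -0.09 at its other probe set, and 0.04 at the first without replicate 3 of both groups. molo-1, which encodes an auxiliary membrane protein of levamisole receptors, read 3.81, 3.92 and 3.68 in PVD and OLL and 3.99, 3.98 and 4.0 in the whole animal. All of its PVD and OLL arrays were lower, by 0.19 on average, and the difference was not called (adjusted p = 0.488). All 7 accessory genes exceeded background on every array of both groups.

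**Figure D2:**
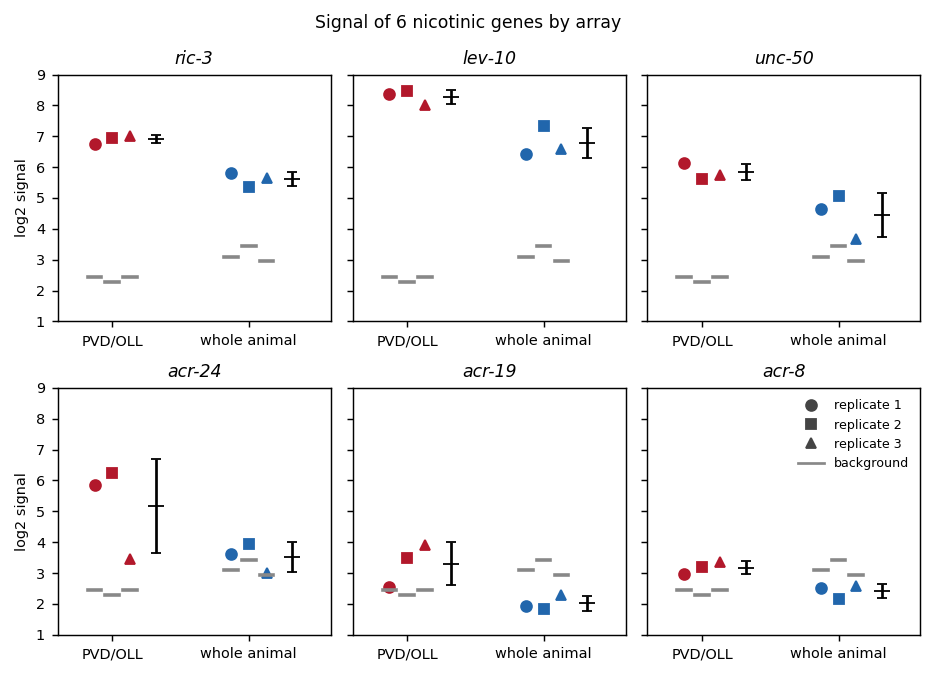
Log2 signal of ric-3, lev-10, unc-50, acr-24, acr-19 and acr-8 on each array, with PVD and OLL in red and the whole animal in blue; symbols mark replicates, black bars the mean ± SD (n = 3) and grey ticks the no-target background of each array. The groups are apart for 5 of the genes, while acr-24 at 3.44 on PVD and OLL replicate 3 lies within the whole animal range.

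Body wall muscle and motor neurons are known sites of these proteins, and their markers were measured on the same arrays. Over all genes 8.10% were called higher and 4.66% lower. Of 10 body wall muscle markers, myo-3 (1.05) and mup-2 (0.72) rose, unc-27 fell by 0.77 and the median difference was 0.23. Their summed linear signal ranged from 9843 to 11761 in PVD and OLL and from 8585 to 12313 in the whole animal, and 0 were below background on all arrays of a group. The calls of mup-2 and unc-27 were lost with any 1 array left out, and that of myo-3 in 3 of 6 such runs. Of 9 cholinergic motor neuron markers, unc-3 and del-1 rose and 0 fell. Their sums ranged from 81.2 to 150.3 in PVD and OLL and from 69.9 to 89.8 in the whole animal, where unc-3, unc-4 and acr-5 were below background on every array. Omitting single arrays ended the call of unc-3 in 4 of 6 runs and that of del-1 in 5 of 6, with adjusted p reaching 0.0921 and 0.144. del-1 is also on the list of PVD and OLL markers. Of 5 markers of GABA neurons, unc-25 rose (1.26), with sums from 95.5 to 141.4 in PVD and OLL and from 59.6 to 74.7 in the whole animal. Its call was lost in 3 of 6 such runs, after repeated quantile normalization (adjusted p = 0.0715) and after cyclic loess (adjusted p = 0.0633). Of 7 intestinal markers 1 rose and 2 fell, of 7 hypodermal markers 3 rose and 2 fell, and of 6 germline markers 0 rose and 2 fell. In such runs the call of rme-2 was lost in 6 of 6, those of rol-6 and vit-2 in 5 and those of bli-1, lin-26 and vit-6 in 4. That of col-19 was lost in 3 runs, and those of cpr-1, col-12 and msp-142 in 0. These marker counts used the brightest probe set of each gene. Dimmer probe sets of unc-89 (1.42, adjusted p = 0.00761), gld-1 (1.12, adjusted p = 0.0367), unc-30 (1.05, adjusted p = 0.0477) and elt-2 (0.72, adjusted p = 0.0459) rose. The brightest of these genes were not called. Another probe set of unc-89 was 0.90 lower and not called (adjusted p = 0.0811), and the dimmer one of vit-6 lost its call (-2.78, adjusted p = 0.0513). The part of the marked cell types in the rises of ric-3, unc-50 and lev-10 was not tested.

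The subunits lay close to background on many arrays, as the map of signal over background shows. Of the 26, 13 exceeded background on all PVD and OLL arrays and 6 on all whole animal arrays. These shares were 50% and 23.1%. Over all genes the shares were 66.6% in PVD and OLL and 49.9% in the whole animal. On single arrays, 16, 22 and 18 subunits exceeded background in PVD and OLL and 10, 7 and 8 in the whole animal. In the whole animal, 15 subunits exceeded background on no array, and acr-7 and acr-11 did so on no array of either group. The median difference of the no-target controls was -0.50. The cutoff was thus lower on the PVD and OLL arrays, and these counts do not compare signal between the groups. The median subunit signal was 2.78 in PVD and OLL and 2.72 in the whole animal. For example, acr-20 exceeded background on all PVD and OLL arrays at a mean of 2.56. In the whole animal it did so on 0 arrays at a mean of 2.85.

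**Figure D3:**
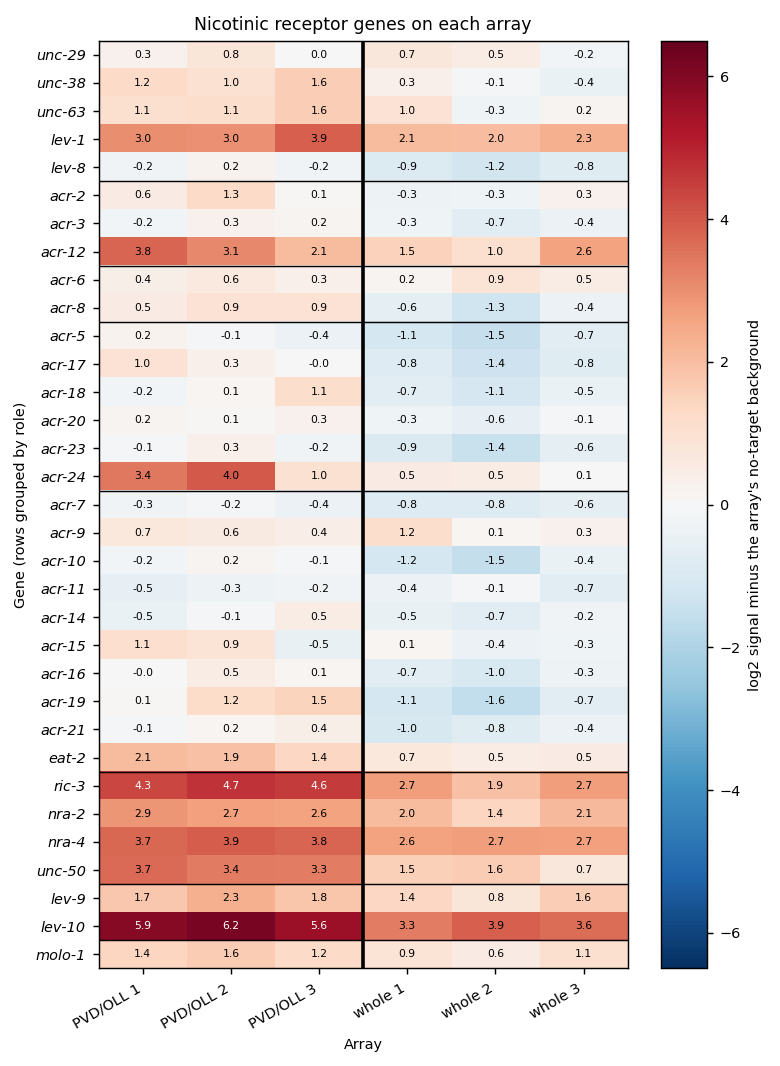
Log2 signal of each nicotinic gene minus the no-target background of the same array, so that values below 0 are at background; columns are arrays with PVD and OLL left of the whole animal, and lines part the roles. Rows are not comparable with each other; lev-10, ric-3, nra-4 and lev-1 were above background on every array, and most subunits were near 0 or below it in the whole animal.

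Of the 5 subunits of the levamisole receptor, the receptor of body wall muscle opened by the drug levamisole, 0 were called and the median difference was 0.21. lev-1, a non-alpha subunit, read 5.45, 5.27 and 6.34 in PVD and OLL and 5.16, 5.44 and 5.24 in the whole animal. PVD and OLL replicate 3 was the highest array and the other values overlapped (0.40 ± 0.30, adjusted p = 0.376). Without that replicate the difference was 0.08. unc-38, an alpha subunit that also serves neuronal receptors, read 3.67, 3.28 and 4.05 in PVD and OLL and 3.43, 3.33 and 2.51 in the whole animal. PVD and OLL replicate 2 lay below 2 whole animal arrays (0.57 ± 0.32, adjusted p = 0.245). Replicate 3 was the highest PVD and OLL array and the lowest whole animal array, and without both the difference was 0.09 (adjusted p = 0.769).

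unc-63, the other alpha subunit shared with neuronal receptors, read 3.49, 3.4 and 4.05 in PVD and OLL and 4.05, 3.13 and 3.14 in the whole animal. The highest values of the groups coincided, and the difference was 0.21 (95% interval from -0.53 to 0.94). It was -0.15 without replicate 3 of both groups (adjusted p = 0.762). unc-29, an essential non-alpha subunit of this receptor, read 2.71, 3.04 and 2.47 in PVD and OLL and 3.81, 3.90 and 2.77 in the whole animal. It was lower by 0.75 ± 0.34 and not called (adjusted p = 0.169). Whole animal replicate 3 lay within the PVD and OLL range. Without that replicate the difference was -1.11 (adjusted p = 0.0282). It was -0.98 (adjusted p = 0.0225) when PVD and OLL replicate 3 was omitted too. lev-8, an alpha subunit, read 2.21, 2.49 and 2.20 in PVD and OLL and 2.17, 2.25 and 2.17 in the whole animal. It exceeded background on 1 PVD and OLL array only, and its difference was 0.10 (adjusted p = 0.722).

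acr-2, acr-3 and acr-12 encode subunits of a receptor on cholinergic motor neurons, which they form with UNC-38 and UNC-63, and 0 of these 3 were called. acr-12 read 6.22, 5.40 and 4.50 in PVD and OLL and 4.57, 4.45 and 5.56 in the whole animal. Replicate 3 was the lowest PVD and OLL array and the highest whole animal array (0.51 ± 0.47, adjusted p = 0.473). With replicate 3 of both groups left out the difference was 1.3 (adjusted p = 0.0289). acr-2 read 2.99, 3.54 and 2.54 in PVD and OLL and 2.78, 3.14 and 3.23 in the whole animal. The groups overlapped fully, with a difference of -0.03 (95% interval from -0.70 to 0.65), and of 0.31 without replicate 3 of both groups (adjusted p = 0.412). acr-3, which is the next gene to acr-2 on the chromosome, read 2.28, 2.54 and 2.60 in PVD and OLL and 2.81, 2.69 and 2.58 in the whole animal, below background on every whole animal array (-0.22, adjusted p = 0.455).

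acr-6, of the UNC-38 class, and acr-8, of the same class as lev-8 and acr-12, had differences of opposite sign, and neither was called. acr-8 read 2.96, 3.2 and 3.36 in PVD and OLL and 2.51, 2.14 and 2.59 in the whole animal. The groups did not overlap, and every whole animal array was below background. Against background its mean was at least 1.01-fold higher on the deposited scale, a bound without an interval. The difference was not called (adjusted p = 0.0565). acr-8 was called under 4 of 16 alternatives, repeated quantile normalization (adjusted p = 0.0488) and cyclic loess (adjusted p = 0.0473) among them. It was not called with arrays centred on their medians (adjusted p = 0.122) or with any 1 array omitted (adjusted p up to 0.171). acr-6 read 2.82, 2.92 and 2.75 in PVD and OLL and 3.25, 4.32 and 3.42 in the whole animal. All PVD and OLL arrays were lower, but the difference of -0.83 ± 0.30 was not called (adjusted p = 0.102).

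Of 6 subunits of the DEG-3 class, the class of deg-3 and des-2, 0 were called, with a median difference of 0.31. acr-24 read 5.85, 6.26 and 3.44 in PVD and OLL and 3.61, 3.94 and 3.00 in the whole animal. PVD and OLL replicates 1 and 2 lay well above every whole animal array and replicate 3 did not. The difference of 1.67 ± 0.69, the largest among the subunits, was not called (adjusted p = 0.143). Without PVD and OLL replicate 3 it was 2.54 (adjusted p = 0.0104). It was 2.28 (adjusted p = 0.00503) when whole animal replicate 3 was omitted too. Replicate 3 lay 2.61 below the mean of the other PVD and OLL arrays for acr-24, the largest such gap among the nicotinic genes on any array.

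acr-17 read 3.39, 2.61 and 2.42 in PVD and OLL and 2.26, 2.08 and 2.17 in the whole animal. Its groups did not overlap, and all whole animal arrays were below background (0.64 ± 0.28, adjusted p = 0.158). acr-18 read 3.58 on PVD and OLL replicate 3, while its other values in both groups lay between 2.28 and 2.5. Its difference was 0.36 ± 0.35 (adjusted p = 0.497), and -0.05 without that array (adjusted p = 0.869). acr-23 encodes the betaine receptor targeted by the drug monepantel. It read 2.30, 2.58 and 2.22 in PVD and OLL and 2.16, 1.98 and 2.31 in the whole animal, near background in both groups (0.22, adjusted p = 0.480). acr-5, known from B-type motor neurons, had means of 2.30 in PVD and OLL and 2.05 in the whole animal, and acr-20 of 2.56 in PVD and OLL and 2.85 in the whole animal. Neither passed the test (adjusted p = 0.455 and 0.335).

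For comparison, deg-3 and des-2 rose by 4.27 ± 0.38 and 4.09 ± 0.23, and both stayed called with any 1 array left out.

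Of 10 subunits of the ACR-16 class, which resembles the vertebrate alpha7 subunit, 0 were called, with a median difference of -0.01. acr-16 forms the levamisole-insensitive receptor of body wall muscle that nicotine opens. It read 2.43, 2.78 and 2.58 in PVD and OLL and 2.39, 2.41 and 2.62 in the whole animal. The groups overlapped and the whole animal arrays were below background, with a difference of 0.12 (95% interval from -0.33 to 0.57). eat-2, a subunit of the receptor that drives pharyngeal pumping, read 4.50, 4.20 and 3.81 in PVD and OLL and 3.79, 3.89 and 3.48 in the whole animal. It exceeded background on every array, and the groups overlapped through PVD and OLL replicate 3 (0.45 ± 0.24, adjusted p = 0.241). Of 7 pharyngeal muscle markers 0 were called by limma at their brightest probe set (2 were higher at an unadjusted p under 0.05). A dimmer probe set of myo-1 rose by 2.16 (adjusted p = 0.0205), against 0.36 at the brightest (adjusted p = 0.285). The dimmer one of ceh-22 differed by 0.31 and was not called. The values that follow are those of the brightest probe sets. The median difference of the 7 markers was 0.36 and their summed signal 844 to 1030 in PVD and OLL and 575 to 716 in the whole animal. The part of pharyngeal muscle in the eat-2 values was not tested.

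acr-19 read 2.54, 3.48 and 3.89 in PVD and OLL and 1.95, 1.83 and 2.28 in the whole animal. The groups did not overlap, PVD and OLL replicate 1 was nearest to the whole animal, and all whole animal arrays were below background. Against background its mean was at least 1.11-fold higher on the deposited scale, a bound without an interval. Its adjusted p of 0.0511 just missed the threshold. It was called under 7 of 16 alternatives. Among the runs with 1 array omitted it was called in 1 of 6, that without PVD and OLL replicate 1 (adjusted p = 0.0291), and not in the other 5 (adjusted p up to 0.162). It was called after repeated quantile normalization (adjusted p = 0.0432) and cyclic loess (adjusted p = 0.046), and not with arrays centred on their medians (adjusted p = 0.0751).

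acr-9 and acr-11 were the lowest of the class relative to the whole animal. acr-9 read 3.14, 2.87 and 2.88 in PVD and OLL and 4.25, 3.54 and 3.24 in the whole animal, with no overlap (-0.71 ± 0.28, adjusted p = 0.133). acr-11 read 1.92, 1.93 and 2.23 in PVD and OLL and 2.69, 3.35 and 2.20 in the whole animal, all below background (-0.72 ± 0.31, adjusted p = 0.151). Without replicate 3 of both groups acr-11 was called lower, still at background. acr-15, the neighbour of acr-16 on the chromosome, read 3.5, 3.19 and 1.96 in PVD and OLL and 3.23, 3.04 and 2.68 in the whole animal. PVD and OLL replicate 3 was its lowest array, and the difference was -0.10 ± 0.40 (adjusted p = 0.879). Without that array it was 0.36 (adjusted p = 0.347). acr-7, acr-10, acr-14 and acr-21 had means between 2.13 and 2.52 in PVD and OLL and between 2.11 and 2.68 in the whole animal, with differences between -0.33 and 0.24, and were not called.

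Arrays of the groups did not overlap for 7 higher and 5 lower of the 33 nicotinic genes, against 18.4% higher and 21.9% lower over all genes. Whether these counts differ from the shares over all genes was not tested. The higher genes were ric-3, unc-50, lev-10, nra-4, acr-8, acr-17 and acr-19. The lower ones were acr-6, acr-7, acr-9, acr-20 and molo-1, and 0 of these passed the test.

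**Figure D4:**
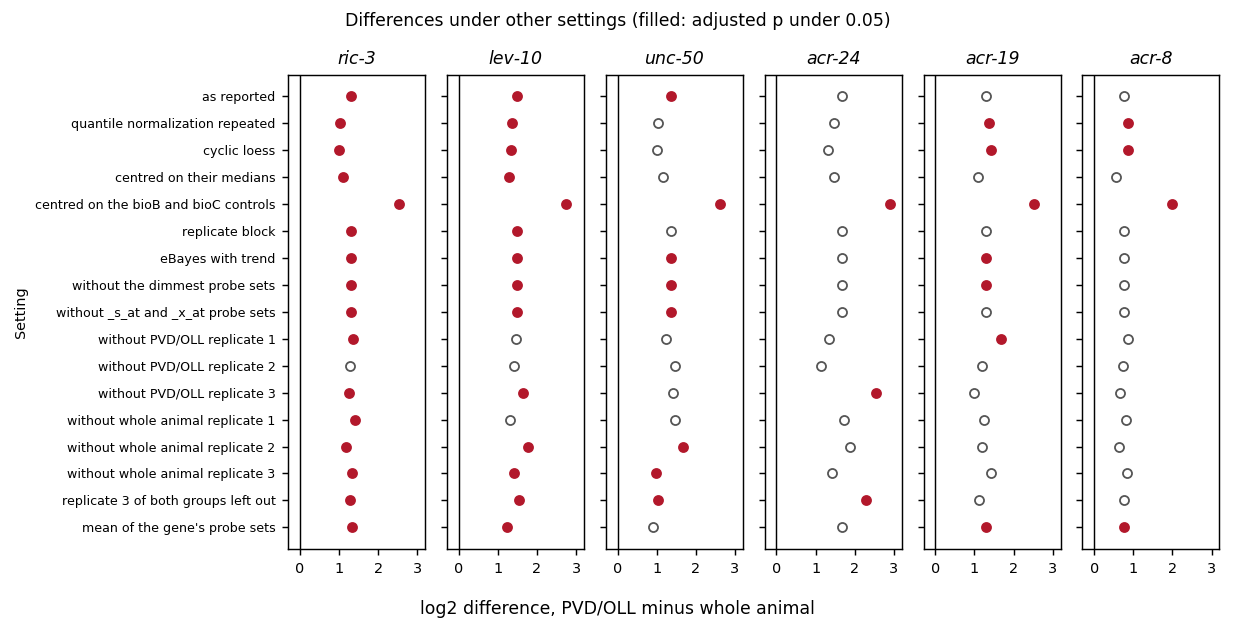
Log2 difference of 6 nicotinic genes, PVD and OLL minus whole animal, under the reported setting and 16 alternatives; filled circles have an adjusted p under 0.05. ric-3 was called under 15 of the alternatives and lev-10 under 13, while acr-24 was called only where PVD and OLL replicate 3 was left out or arrays were centred on the bioB and bioC controls.

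Other genes of acetylcholine signalling were read from lists by function. Over all genes 8.10% were called higher and 4.66% lower. Of 3 muscarinic receptor genes, which encode G protein-coupled acetylcholine receptors, gar-3 rose and 0 fell. gar-3 read 4.59, 4.96 and 4.27 in PVD and OLL and 3.10, 2.64 and 3.22 in the whole animal, with no overlap (1.62 ± 0.26, adjusted p = 0.00978). It stayed called with any 1 array left out, but its other probe sets differed by 0.20 and 0.07 and were not called. The remaining members, named after their values were seen, were gar-2 (0.66, adjusted p = 0.0552) and gar-1 (1.52, adjusted p = 0.107).

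Of 8 genes for the synthesis, transport and breakdown of acetylcholine, the acetylcholinesterase gene ace-3 rose and 0 fell. This is 12.5% called higher, against 8.10% over all genes. ace-3 read 3.57, 3.80 and 4.45 in PVD and OLL and 2.88, 2.75 and 2.71 in the whole animal, below background there. It was at least 1.72-fold higher (adjusted p = 0.0279). Omitting single arrays ended this call in 4 of 6 runs, with adjusted p reaching 0.0869. The median difference of the list was 0.07. Of 8 acetylcholine-gated chloride channel genes 0 were called by limma, also without adjustment, their median difference was -0.06, and 6 were below background on all whole animal arrays.

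Of 11 measured genes that regulate or place nicotinic receptors, lin-17 rose and unc-68 fell. The share called higher (9.09%) lay near the 8.10% of all genes. lin-17 encodes a Frizzled receptor of the Wnt pathway that controls delivery of ACR-16 receptors to the synapse. It rose by 1.87 ± 0.44 (adjusted p = 0.0318), and by 1.01 at its other probe set (adjusted p = 0.0336). Omitting single arrays ended its call in 4 of 6 runs, with adjusted p reaching 0.106. unc-68, the ryanodine receptor of muscle, fell by 0.96 ± 0.24 (adjusted p = 0.0365) at its brightest probe set. The others differed by -0.32 and 0.12, and omitting single arrays ended the call in 5 of 6 runs, with adjusted p reaching 0.136. On the scale of the bioB and bioC controls unc-68 was 0.28 higher. Chosen after their values were seen, madd-4 and frm-3 had a dimmer probe set that rose, by 1.98 (adjusted p = 0.021) and 1.28 (adjusted p = 0.0216). Their brightest probe sets differed by -0.27 and 0.78 and were not called. MADD-4 is a secreted organizer of cholinergic and GABA synapses, and FRM-3 is a scaffold protein with a FERM domain.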

How the data were processed

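The authors deposited log2 values for every probe set on each array, made with RMA per the submitters' processing notes. RMA subtracts background, equalizes the arrays' quantiles and fits a robust probe summary. Even so, the medians of the deposited arrays differed between the groups. They were 3.86, 3.89 and 3.72 on PVD and OLL replicates 1 to 3 and 3.61, 3.59 and 3.67 on whole animal replicates 1 to 3. No label states the base: log2 was read from values between 1.21 and 13.9. The sources used here give no software version and no genome build. Scanner files and scan dates were not used. Of 22625 probe sets, 77 controls were left out and 22548 tested. Gene names came from the array annotation, updated through RefSeq (WBcel235), which named 20701 of 20766 probe sets with 1 gene; 887 had several and 895 none. Genes were represented by the probe set with the highest mean of 6 arrays.

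Groups were compared with limma 3.58.1 in R 4.3.3 (lmFit, eBayes, Benjamini-Hochberg over all probe sets, two-sided). The code was also run on simulated data with independent noise and planted shifts. Those data held no outlying replicate, background shift or batch, so they say nothing about such effects here. The background level is the 95th percentile of 32 no-target controls. For a group below it on every array, a fold is "at least", against that level, and no fold is given under 1. Such folds have no interval and hold for the deposited scale only. Each result was recomputed after quantile normalization, cyclic loess, centring on medians or on bioB and bioC controls, with a replicate block, a variance trend, without the dimmest 25% or _s_at and _x_at probe sets, with the mean of a gene's probe sets, and without arrays. The number of arrays limits the precision. Members, gene lists and named genes were chosen with earlier results of these data known. Named were all members, and up to 3 called genes per list in the main direction and 1 in the other. For marker lists, further genes were named to show how stable their calls were or that they were not called. Same-numbered arrays did not deviate together (correlations from -0.10 to -0.05 across probe sets), and no label used here pairs them. With 3 arrays per group this cannot exclude a shared preparation or batch, which was not tested.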

Additional observations from a re-analysis of the deposited data

How the results depend on the processing

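Over all probe sets 3063 were called (2099 higher and 964 lower), between 785 and 3239 with 1 array left out, 5142 with replicate 3 of both groups left out, 1786 without _s_at and _x_at probe sets and 12818 (12752 higher) on the scale of the bioB and bioC controls. Higher calls were 1476 of 3428 with arrays centred on their medians, 1192 of 2199 after repeated quantile normalization and 1195 of 2274 after cyclic loess. With the replicate number as a block the count was 1629 (1224 higher and 405 lower). No label used here says that same-numbered arrays were prepared together. The nicotinic genes called numbered 3, and between 0 (without PVD and OLL replicate 2) and 4 with 1 array left out, 1 of them without whole animal replicate 1. They numbered 7 with replicate 3 of both groups left out (unc-29 and acr-11 lower, acr-12, acr-24, ric-3, unc-50 and lev-10 higher), 24 on the scale of the bioB and bioC controls, and 2 with the block, where unc-50 lost its call (adjusted p = 0.0691). The median over nicotinic genes, 0.21, was 0.14 after cyclic loess, 0.0043 after median centring, 1.45 with the bioB and bioC controls and 0.36 without the dimmest 25% of probe sets, which left 23 genes; with 1 array left out it lay between 0.13 and 0.19. Centring on the bioB and bioC controls turned acr-2 (1.22), acr-15 (1.14) and lev-9 (1.17) from slightly lower to called higher, and changed the sign of 12 genes in all. The cause of these changes was not tested beyond the shift that centring applies to every probe set. Signal near background limits most subunits.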
